A study of Mus musculus with 7 samples.

Results

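Oxidative phosphorylation genes that are encoded in the nucleus were examined in regulatory T (Treg) cells of a mouse tumour. They are the subunits of respiratory complexes I to IV and of ATP synthase, which is complex V. Members were taken by gene name, as names that begin with Nduf followed by a, b, c, s or v, with Uqcr, with Cox followed by 4 to 8 and a letter, or with Atp5, together with Sdha, Sdhb, Sdhc and Sdhd. Of 57180 genes in the table, 117 matched these names, 15 pseudogenes among them were left out, and 102 were kept. The 102 comprised 42 genes of complex I, 4 of complex II, 8 of complex III, 21 of complex IV, 19 of complex V and 8 assembly factors of complex I, whose names begin with Ndufaf. Ndufa4 and its relative Ndufa4l2 were counted with complex IV, where the Ndufa4 protein resides. The symbol Atp5po stands on 2 entries of the table, so the 102 entries carry 101 symbols.

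RNA was sequenced in bulk from Treg cells that had infiltrated B16-F0 melanoma, a mouse melanoma line, in Foxp3-Cre-YFP mice. Cells labelled FOXP3-low gave 4 libraries and cells labelled FOXP3-high gave 3, and every library was labelled as tumour tissue, Treg and wild type, so the labels separate the groups by FOXP3 alone. The gate of the sort, the other surface markers, the age of the mice and whether libraries of a group came from separate mice are not stated in the labels used, so p-values measure the spread between these libraries, which may be technical. Each FOXP3-low library held between 12177761 and 14546999 counts, and each FOXP3-high library between 9048771 and 11202260.

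Foxp3, the transcription factor that defines Treg cells and names the groups, was measured at 329.7, 397, 309.7 and 393 on the counts-per-million (CPM) scale in FOXP3-low libraries 1 to 4 and at 647, 808 and 639 CPM in FOXP3-high libraries 1 to 3. The groups did not overlap, in the direction of their labels (log2 fold change 0.97 ± 0.11 (SE), edgeR adjusted p = 7.47e-05). The libraries also differed in genes of other cells. All 15 macrophage and monocyte markers, all 6 neutrophil markers and all 8 dendritic cell and MHC class II markers of the lists used here fell in FOXP3-high, with summed levels of 2181 to 2711, 2627 to 3090 and 2319 to 3587 CPM in FOXP3-low against 231 to 337, 92.3 to 227 and 168 to 293 CPM in FOXP3-high. All 8 melanoma and melanocyte markers rose, from 1305 to 2356 CPM in sum to 3221 to 4427 CPM. All 10 cell cycle genes fell, from 5143 to 5569 CPM in sum to 1087 to 1270 CPM, and 14 of 16 T cell identity genes rose, from 3948 to 4421 CPM in sum to 5325 to 6067 CPM. Of 10 Treg genes, 7 rose and 1 fell. Fell and rose stand here for an edgeR adjusted p under 0.05, by which 24.6% of all genes tested were lower and 21.8% higher. None of the markers was at 0 in every FOXP3-high library. Most genes described below are in general use in all of these cells, while some, such as tissue-restricted forms, are not. For either kind, RNA from cells other than Treg cells and RNA of Treg cells cannot be told apart in these counts. The part of each cell type in the results below was not tested. In a bulk sample, fewer cells that express a gene and less of its RNA per cell cannot be told apart either.

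In oxidative phosphorylation, complex I takes electrons from NADH and complex II takes them from succinate. Ubiquinone carries them to complex III and cytochrome c to complex IV, which passes them to oxygen. Complexes I, III and IV pump protons across the inner mitochondrial membrane, and ATP synthase lets the protons flow back to make ATP. Treg cells are known for relying on oxidative metabolism more than conventional effector T cells do, and FOXP3 has been linked to this in earlier work. Nearly all subunits are encoded in the nucleus, while a small set of core subunits is encoded in the mitochondrial genome. The nuclear genes share several transcription factors, among them nuclear respiratory factor 1 (NRF1), the ETS family factor GABP, YY1 and the oestrogen-related receptor alpha.

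The RefSeq promoter table, on the build GRCm38.p6, held windows for 79 of the 101 member symbols, each running from 250 bases before to 50 bases after the annotated start. The 4 windows printed here belong to members that fell in FOXP3-high and hold a motif of NRF1 or of the ETS family, the 2 motifs that were most frequent in the members. They are written 5′ to 3′ on the strand of the gene, and the capitals mark the matched letters.
Atp5if1, chr4:132535365-132535664, minus strand, 1 match of the looser NRF1 motif GCGCANGCG: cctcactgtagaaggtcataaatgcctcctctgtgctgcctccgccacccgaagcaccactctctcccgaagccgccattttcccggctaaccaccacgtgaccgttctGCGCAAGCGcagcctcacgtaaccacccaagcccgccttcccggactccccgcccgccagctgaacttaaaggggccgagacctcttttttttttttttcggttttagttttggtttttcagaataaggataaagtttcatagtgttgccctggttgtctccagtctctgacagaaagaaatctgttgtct
Uqcrc1, chr9:108936398-108936697, plus strand, 3 matches of the same motif, of which a pair overlap on opposite strands: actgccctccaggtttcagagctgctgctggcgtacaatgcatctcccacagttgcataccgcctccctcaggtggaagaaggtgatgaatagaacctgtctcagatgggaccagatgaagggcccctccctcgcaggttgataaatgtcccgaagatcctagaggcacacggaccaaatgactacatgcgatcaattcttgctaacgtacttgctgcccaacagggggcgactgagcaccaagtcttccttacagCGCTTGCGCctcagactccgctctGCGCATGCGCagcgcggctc
Ndufb7, chr8:83566508-83566807, plus strand, 1 match of the ETS motif CCGGAAG: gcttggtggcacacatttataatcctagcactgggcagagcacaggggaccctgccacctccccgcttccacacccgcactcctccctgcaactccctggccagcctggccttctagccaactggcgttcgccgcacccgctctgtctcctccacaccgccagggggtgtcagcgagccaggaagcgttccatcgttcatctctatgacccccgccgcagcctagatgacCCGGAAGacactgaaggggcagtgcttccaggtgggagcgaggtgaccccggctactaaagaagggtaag
Atp5pf, chr16:84834927-84835226, minus strand, 1 match of the ETS motif: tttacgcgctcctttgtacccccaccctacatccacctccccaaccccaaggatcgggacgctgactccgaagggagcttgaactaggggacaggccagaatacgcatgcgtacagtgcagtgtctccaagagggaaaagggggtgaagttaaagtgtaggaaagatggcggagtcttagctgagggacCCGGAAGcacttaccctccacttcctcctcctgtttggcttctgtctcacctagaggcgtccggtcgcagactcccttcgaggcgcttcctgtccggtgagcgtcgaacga
In Atp5if1 the match begins 141 bases before the start (position -141), in Ndufb7 at -20 and in Atp5pf at -61. In Uqcrc1 the matches begin downstream of the annotated start, between positions 6 and 31.

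Motifs were searched on both strands of every RefSeq window of the same length, 32851 windows of 27025 genes. The NRF1 motif GCGCATGCG occurred in 10 of the 79 members (12.7%) and in 1.95% of all genes. Its looser form GCGCANGCG, which includes every match of the first, occurred in 23 members (29.1%) and in 7.03% of all genes. The ETS motif CCGGAAG occurred in 18 members (22.8%) against 9.93% of all genes, the YY1 motif AAGATGGCG in 8 (10.1%) against 1.64%, and the motif TCAAGGTCA of oestrogen-related receptor alpha in 2 (2.53%) against 0.466%. Each of these motifs was thus held by a larger share of the members than of all genes. Among tested members, 14 of 23 with the looser NRF1 motif fell in FOXP3-high, with a median log2 fold change of -0.31, and 25 of 52 without it fell, with a median of -0.31. With the ETS motif 9 of 18 fell (median -0.34), and without it 30 of 57 (median -0.30). With the YY1 motif 5 of 8 fell (median -0.40), against 34 of 67 without it (median -0.31), and both tested members with the receptor motif fell (median -0.40). With the strict NRF1 motif 4 of 10 fell and without it 35 of 65, with medians of -0.31 and -0.32. Of all genes tested, 24.6% were lower. No test was made between members with and without a motif. A match describes letters in this window and is not evidence of binding.

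The members as a group stood lower in FOXP3-high. Their summed level was 6431, 6201, 6357 and 6524 CPM in FOXP3-low libraries 1 to 4 and 5194, 4816 and 5038 CPM in FOXP3-high libraries 1 to 3. Every FOXP3-high library was below every FOXP3-low library, and the FOXP3-high mean was 78.6% of the FOXP3-low mean. As a share of all deposited counts, members took between 0.606% and 0.640% in FOXP3-low libraries, and between 0.478% and 0.539% in FOXP3-high libraries.

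Of the 102 members, 91 had enough counts to be tested, and 49 of these (53.8%) fell in FOXP3-high at an adjusted p under 0.05 (edgeR quasi-likelihood test, Benjamini-Hochberg over all 15838 genes tested). Among all genes tested, 46.5% passed by the same rule, 24.6% as lower and 21.8% as higher. Members were more abundant, with a median level of 27.4 CPM against 12.8 CPM for all genes tested, and abundant genes pass a test more readily. Among genes with at least 50 counts in 3 libraries, 47 of 87 members fell, against 29.8% of all genes. No tested member rose by the edgeR test, 1 was higher at an unadjusted p under 0.05, DESeq2 called 1 higher and limma-voom called 0. Of all 91, 77 had negative and 14 had positive log2 fold changes. In 52 members every FOXP3-high library lay below every FOXP3-low library, a pattern found in 26.8% of all genes tested. The opposite pattern was found in 1 member and in 23.9% of all genes.

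Most differences were of moderate size. The median log2 fold change of the 91 members was -0.33, against 0.01 for all genes tested, and values ran from -1.49 in Cox6b2 to 0.29 in Ndufs3. The interquartile range was 0.27 for the members and 0.77 for all genes. Beyond an absolute log2 fold change of 1 there were 2 members that passed the test, Cox6b2 and Atp5mc1, both at low levels, while 14.6% of all genes tested passed both limits. Cox6b2 had enough counts to be tested only through its FOXP3-low libraries. Measured against the FOXP3-low means, the median deviation over members was between -0.03 and 0.03 in the 4 FOXP3-low libraries and was -0.24, -0.38 and -0.27 in FOXP3-high libraries 1 to 3. FOXP3-high library 2 stood lowest, and without it 35 members fell.

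**Figure D1:**
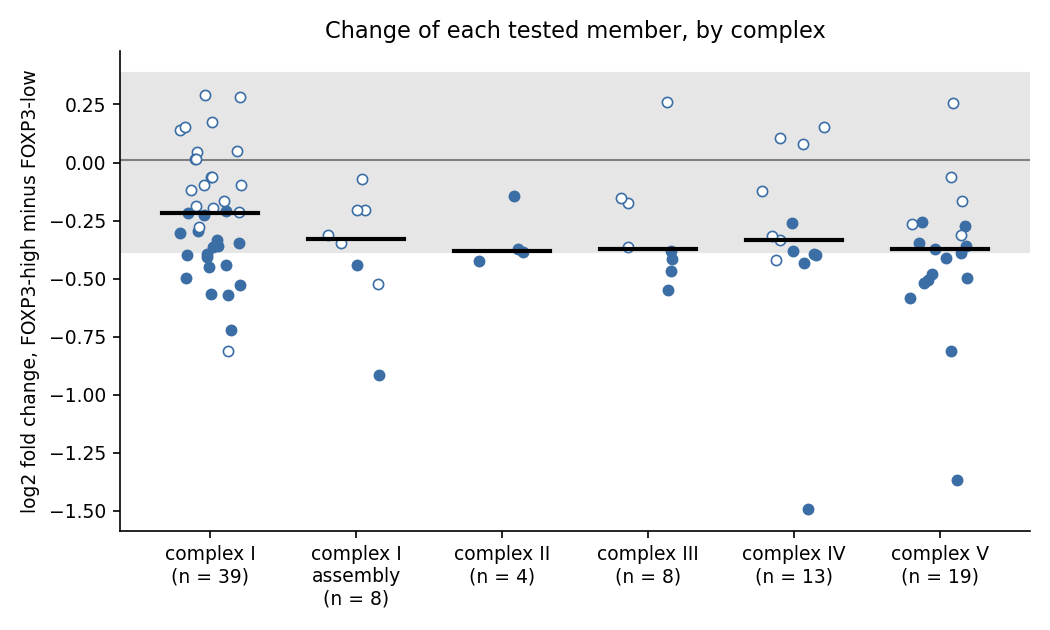
Log2 fold change (FOXP3-high minus FOXP3-low) of each of the 91 tested members, by complex; filled points passed the edgeR test at an adjusted p under 0.05, open points did not, black bars are medians, the grey line is the median of all genes tested and the grey band their interquartile range. Filled points all lie below 0, and the medians run from -0.22 in complex I to -0.38 in complex II.

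Every complex held members that fell. Complex V had the highest share among the larger complexes, with 14 of 19 tested members lower and a median log2 fold change of -0.37. Complex I had 19 of 39 lower with a median of -0.22, complex III 4 of 8 with -0.37, and complex IV 6 of 13 with -0.33. All 4 subunits of complex II fell, with a median of -0.38, and 2 of 8 complex I assembly factors fell, with a median of -0.33, a count close to the 24.6% of all genes that were lower. No test was made between complexes.

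The summed level of complex V was 72.9% of the FOXP3-low mean in FOXP3-high, the lowest of the complexes. The other sums were at 83.2% for complex I, 86.3% for complex II, 85.1% for complex III and 81.2% for complex IV, and the assembly factors were at 78.1%. Abundant genes weigh most in these sums. In FOXP3-low, Atp5f1b and Atp5f1a gave 841 and 405 of the 2839 CPM of complex V, and Sdha gave 218 of the 304 CPM of complex II. By the median over members complex V was not the lowest, at -0.37 against -0.38 in complex II. Complex V made up 44.5% ± 1.18 (SD, n = 4) of the summed member CPM in FOXP3-low and 41.2% ± 0.499 (SD, n = 3) in FOXP3-high, with libraries at 43.4% to 46.2% and 40.7% to 41.5% that did not overlap. Complex I made up 26.01% ± 0.583 and 27.5% ± 0.349 of the members' sum.

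**Figure D2:**
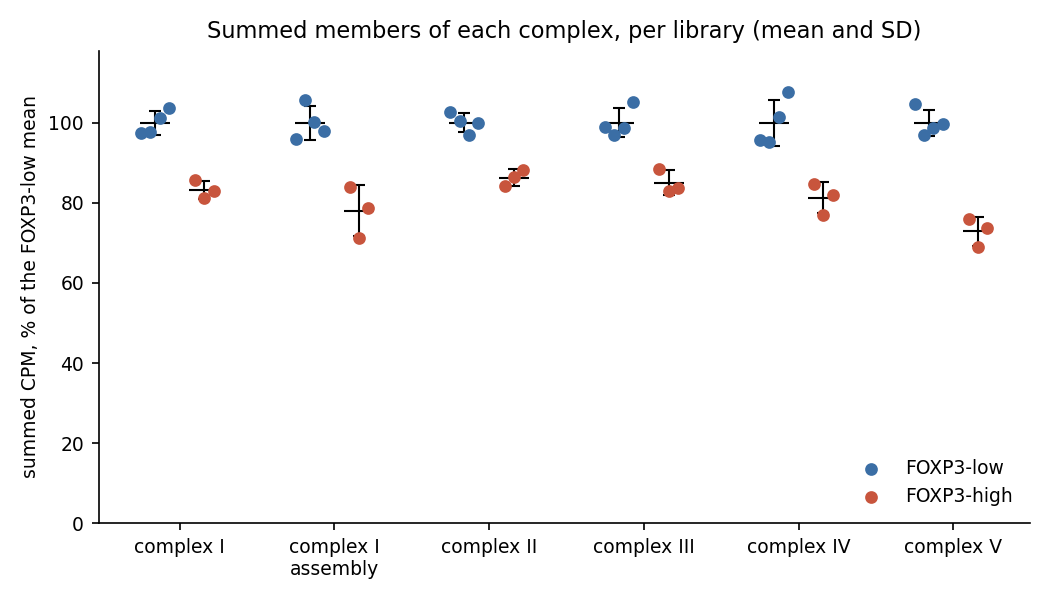
Summed CPM of the members of each complex in each library, as a percentage of the FOXP3-low mean of that complex; points are libraries, and lines are the mean and SD of 4 FOXP3-low and 3 FOXP3-high libraries. In every complex the FOXP3-high libraries lie below all FOXP3-low libraries, with complex V lowest at a mean of 72.9%.

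Gene length and the choice of scaling moved these counts. A smooth trend on gene length was removed in each library, fitted to the deviation of each gene from its mean over all libraries. This fit also takes up the overall level of a library, so it rescales libraries as well. With it 10 members fell and 5 were higher (Uqcrh, Ndufs3, Cox7a2l, Ndufa7 and Ndufb11), against 17.8% and 25.6% of all genes. A version of this correction that downweights outlying genes, chosen after seeing the data, left 37 lower and 2 higher, against 25.4% and 19.1% of all genes. When libraries were scaled to the T cell identity genes instead, 79 members fell, against 49.6% of all genes, and 0 rose by edgeR, against 5.17% of all genes. The median of all genes moved by 0.13 under the first correction and by -0.46 under the T cell scaling. Relative to the median of all genes, the members' median was -0.34 as reported, -0.35 under the T cell scaling, -0.21 under the length correction and -0.27 under its robust version.

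The tested members had a median gene length of 1587 bases in the deposited annotation, against 3820.5 bases for all genes tested. In the bin up to 1000 bases the median log2 fold change was -0.33 for 21 members and -0.03 for all genes. Between 1000 and 1500 bases it was -0.26 for 21 members and -0.15 for all genes, and between 1500 and 2000 bases -0.26 for 16 members and -0.13 for all genes. The difference was thus smallest among genes of 1000 to 2000 bases. In the bin from 2000 to 3000 bases 12 members had a median of -0.34 against -0.09, and over 3000 bases 21 members had -0.37 against 0.06. The 15 of 21 long members that fell were the largest share of any bin, against 23.2% of all genes over 3000 bases. The share of all genes that fell ran from 20.7% up to 1000 bases to 29.9% between 2000 and 3000 bases.

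**Figure D3:**
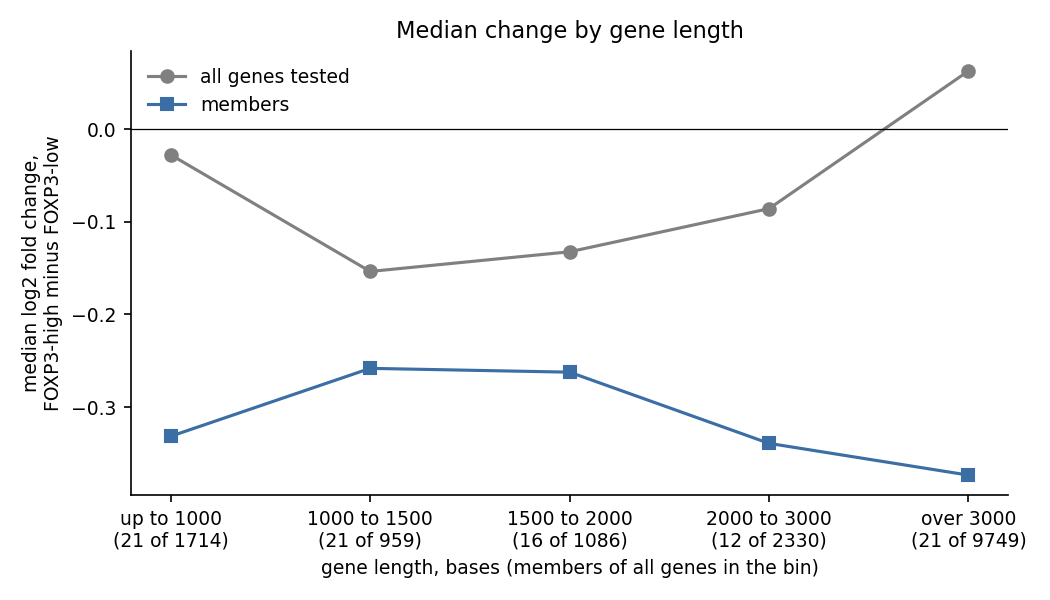
Median log2 fold change (FOXP3-high minus FOXP3-low) in 5 bins of gene length in bases, for members (squares) and for all genes tested (circles), with the number of members and of all genes under each bin. Members lie below all genes in every bin, with differences of -0.10 between 1000 and 1500 bases and -0.44 above 3000 bases.

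**Figure D4:**
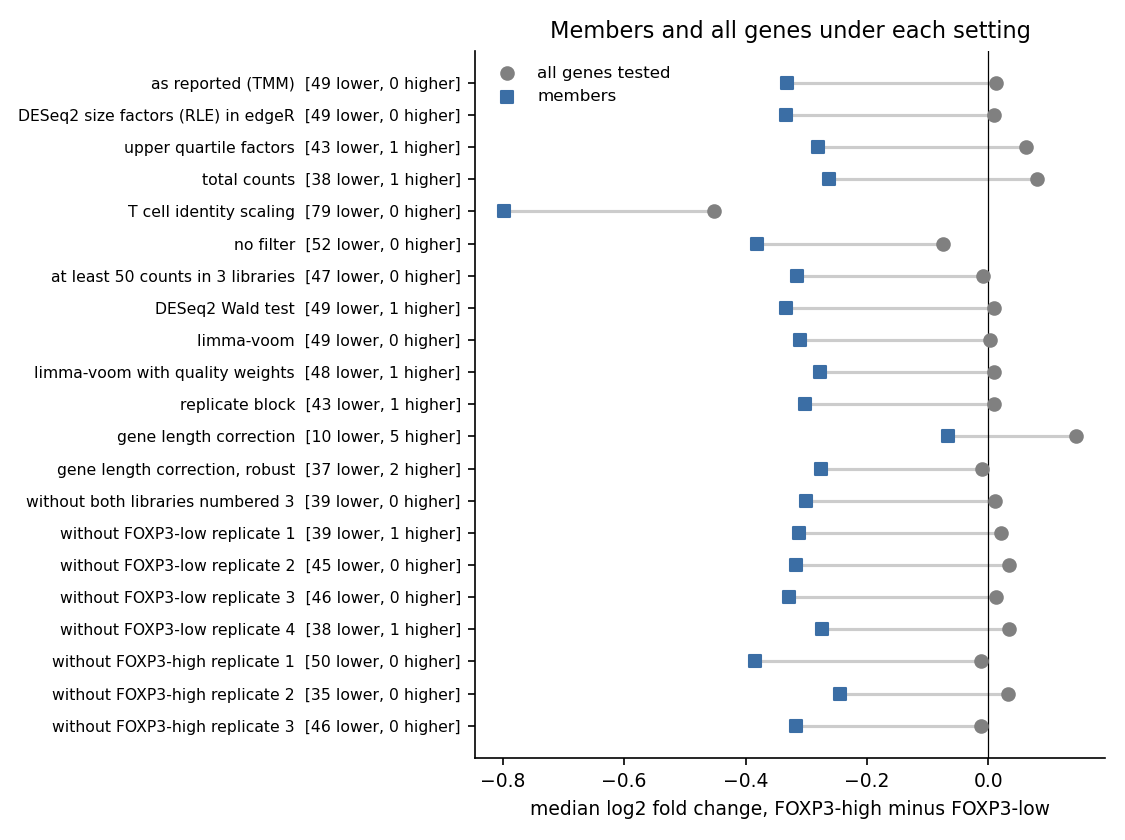
Median log2 fold change of the tested members (squares) and of all genes tested (circles) under the reported setting and 20 alternatives, with the number of members lower and higher in brackets. Members lie below all genes in every setting, and the number lower runs from 10 with the gene length correction to 79 with the T cell identity scaling.

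Under every one of the 20 alternatives that tested them, 10 members remained lower: Ndufc1, Ndufv2, Ndufb7 and Ndufab1 of complex I, Uqcrc1 of complex III, and Atp5f1a, Atp5f1b, Atp5pb, Atp5if1 and Atp5mc1 of complex V. In the 18 alternatives with no length correction 30 members remained lower, and 32 did so in each fit that left out 1 library.

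Complex I has a core of conserved subunits that carry its flavin and iron-sulfur clusters or its proton channels, and a larger set of accessory, or supernumerary, subunits. Of the 7 nuclear core subunits 4 fell, Ndufv2 among them, and 15 of 32 tested supernumerary subunits fell, against 24.6% of all genes tested. The medians were -0.33 and -0.21. Ndufv2 (ENSMUSG00000024099, chr17:66385633-66408490, minus strand in the deposited coordinates, which follow GRCm39, the mouse build in the submitters' notes) encodes an iron-sulfur subunit of the arm that oxidizes NADH. It was at 96.9, 94.4, 92.7 and 88.7 CPM in FOXP3-low and 60.5, 61.3 and 66.9 CPM in FOXP3-high. The groups were well apart, and Ndufv2 had the smallest adjusted p of the complex (log2 fold change -0.57 ± 0.063, edgeR adjusted p = 6.84e-05).

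Ndufb7, an accessory subunit of the membrane arm on the side of the intermembrane space, was at 95.1, 87.0, 87.8 and 102 CPM in FOXP3-low and 68.9, 65.2 and 63.6 CPM in FOXP3-high. Every FOXP3-high library was lower (log2 fold change -0.50 ± 0.072, edgeR adjusted p = 4.02e-04). Ndufc1, another accessory subunit of the membrane arm, was at 19.9, 17.7, 21.0 and 18.7 against 12.8, 10.4 and 11.99 CPM (FOXP3-low libraries against FOXP3-high libraries, here and below), and had the largest decrease among complex I members that passed the test (log2 fold change -0.72 ± 0.11, edgeR adjusted p = 5.99e-04). Ndufa10, an accessory subunit with a fold related to nucleoside kinases, was at 205, 186, 201 and 194 against 161, 148 and 139 CPM. Its level fell to 75.9% of the FOXP3-low mean (log2 fold change -0.40 ± 0.062, edgeR adjusted p = 6.31e-04), but it did not pass the test under the first length correction (edgeR adjusted p = 0.0723), while it did under the robust version (edgeR adjusted p = 9.84e-04).

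Not all of complex I shared this pattern. Ndufs3, a core subunit of the matrix arm chosen after its values were seen, was at 16.7, 28.1, 27.3 and 26.9 CPM in FOXP3-low and 30.2, 30.7 and 29.7 CPM in FOXP3-high, and was the member whose FOXP3-high libraries all lay above FOXP3-low. FOXP3-low library 1 was far below the other 3, and the difference did not pass the test (log2 fold change 0.29 ± 0.16, edgeR adjusted p = 0.176). Ndufs1, the largest core subunit, and Ndufs7, the core subunit next to the ubiquinone site, had log2 fold changes of -0.06 and 0.01, also without passing. Ndufc2, chosen likewise, had a log2 fold change of -0.81 that did not pass (edgeR adjusted p = 0.0534), and its FOXP3-high libraries were spread at 4.47, 1.89 and 5.57 CPM.

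Assembly factors help to build complex I without staying in it. Ndufaf2, a chaperone bound to late assembly intermediates, was at 43.5, 54.6, 49.98 and 50.03 CPM in FOXP3-low and 40.3, 33.4 and 35.7 CPM in FOXP3-high and fell (log2 fold change -0.44 ± 0.097, edgeR adjusted p = 0.00466). Smim15 overlaps Ndufaf2 on the opposite strand and held 168% as many counts, with a log2 fold change of 0.13. Ndufaf6 was at a low level of 5.04, 3.42, 4.77 and 3.35 against 2.15, 1.67 and 2.74 CPM (log2 fold change -0.91 ± 0.27, edgeR adjusted p = 0.0186). The groups did not overlap, but the call was lost when FOXP3-low library 1, FOXP3-high library 1 or FOXP3-high library 2 was left out, with an adjusted p of up to 0.0667. Of the other 6 Ndufaf genes none passed the test, 1 of them at an unadjusted p under 0.05, with log2 fold changes between -0.52 and -0.07.

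Complex II, succinate dehydrogenase, also serves the tricarboxylic acid cycle and is encoded wholly in the nucleus. Sdhb, its iron-sulfur subunit, was at 44.6, 44.1, 39.7 and 43.6 CPM in FOXP3-low and 34.9, 30.7 and 30.4 CPM in FOXP3-high (log2 fold change -0.42 ± 0.081, edgeR adjusted p = 0.00199). The membrane anchors followed the same order, with Sdhc at 23.8, 21.2, 24.4 and 23.9 against 18.1, 16.7 and 19.3 CPM (log2 fold change -0.37 ± 0.091, edgeR adjusted p = 0.00788). Sdhd was at 18.5, 22.7, 20.3 and 20.9 against 15.6, 16.6 and 15.2 CPM (log2 fold change -0.39 ± 0.098, edgeR adjusted p = 0.00967). For these 3 subunits the FOXP3-high mean was 74.5% to 77.2% of the FOXP3-low mean. Sdha, the flavoprotein subunit that binds succinate and the highest of the 4 per length, was at 225, 218, 211 and 216 CPM against 188, 199 and 204 CPM. Its change was smaller, at 90.6% of the FOXP3-low mean (log2 fold change -0.14 ± 0.048, edgeR adjusted p = 0.0345), and it passed the test in 10 of 20 alternatives, losing it without any 1 of FOXP3-low libraries 1, 2 and 4 and FOXP3-high libraries 1 and 2.

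In complex III the Rieske protein Uqcrfs1 and cytochromes pass electrons from ubiquinol to cytochrome c, and the core proteins Uqcrc1 and Uqcrc2 form its base in the matrix. Uqcrc1 (ENSMUSG00000025651, chr9:108765701-108778691, plus strand) was at 143, 133, 136 and 137 CPM in FOXP3-low and 93.6, 99.3 and 88.6 CPM in FOXP3-high. It had the largest decrease of the complex (log2 fold change -0.55 ± 0.056, edgeR adjusted p = 4.08e-05), although Gm57049, on the opposite strand, held 45.1% as many counts and also fell (log2 fold change -0.69). Uqcrc2, its partner, had a log2 fold change of -0.17 that did not pass (edgeR adjusted p = 0.0739).

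Uqcrb, an accessory subunit at the ubiquinone site, was the most abundant member per length, at 276 ± 17.0 (SD, n = 4) FPKM, which is CPM per kilobase of gene length, in FOXP3-low and 207 ± 15.9 (SD, n = 3) in FOXP3-high. Its counts gave 261, 232, 228 and 245 against 195, 167 and 181 CPM (log2 fold change -0.42 ± 0.068, edgeR adjusted p = 7.81e-04). Uqcrq, a small membrane subunit, was at 36.9, 33.8, 36.0 and 31.9 against 26.7, 21.4 and 27.1 CPM (log2 fold change -0.47 ± 0.10, edgeR adjusted p = 0.00415). The groups did not overlap for either of them. Uqcrfs1 was at 41.0, 30.7, 35.9 and 39.0 CPM in FOXP3-low and 29.7, 25.8 and 28.8 CPM in FOXP3-high (log2 fold change -0.38 ± 0.11, edgeR adjusted p = 0.016), where FOXP3-low library 2 lay close to the FOXP3-high range, and the call was lost without FOXP3-low library 1, FOXP3-low library 4 or FOXP3-high library 2 (adjusted p of up to 0.0690). Uqcrh, the hinge protein that docks cytochrome c, was at 129.5, 161, 167 and 185 against 195, 199 and 185 CPM, so that FOXP3-low library 4 reached the FOXP3-high range. Chosen after its values were seen, it did not pass the test (log2 fold change 0.26 ± 0.10, edgeR adjusted p = 0.0612), yet it was called higher under both length corrections and in 7 other alternatives, among them total counts, DESeq2 and the fits without FOXP3-low library 1 or 4. Under the T cell scaling its log2 fold change was -0.20 (edgeR adjusted p = 0.151).

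Complex IV, cytochrome c oxidase, has a catalytic core from the mitochondrial genome surrounded by nuclear subunits, several of which exist as general and tissue-restricted forms. Cox4i1, the general form of a subunit that regulates the enzyme, was at 165, 161, 157 and 165 CPM in FOXP3-low and 127, 111 and 131 CPM in FOXP3-high (log2 fold change -0.40 ± 0.063, edgeR adjusted p = 6.65e-04). Cox6b1, which caps the complex on the intermembrane side, was at 25.5, 23.8, 23.8 and 23.3 against 17.8, 18.04 and 17.7 CPM (log2 fold change -0.43 ± 0.078, edgeR adjusted p = 0.00149). Both fell to about the same degree, at 76.0% and 74.2% of the FOXP3-low mean.

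The membrane subunit Cox6c was at 164, 169, 182 and 197 against 145, 128 and 132 CPM (log2 fold change -0.40 ± 0.075, edgeR adjusted p = 0.00189). Vps13b, on the opposite strand, held 44.0% as many counts and had a log2 fold change of 0.27. Cox7b, another small membrane subunit, was at 100.1, 81.0, 90.4 and 99.0 against 77.4, 58.7 and 77.0 CPM (log2 fold change -0.38 ± 0.11, edgeR adjusted p = 0.0191). FOXP3-high library 2 stood far below the other 2, and without it the log2 fold change of Cox7b was -0.24 and the call was lost, as it was without FOXP3-low library 1 or 4. Cox5b also fell (edgeR adjusted p = 0.0197), but not without FOXP3-low library 4 or FOXP3-high library 2. Cox5a, Cox6a1, Cox8a, Cox7c, Cox7a2, Cox7a2l and Ndufa4 did not pass with all 7 libraries, with log2 fold changes between -0.42 and 0.15.

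Among tissue-restricted forms, 7 of 8 were too low to be tested, and the general forms dominated in both groups. Cox4i1 held 98.9% ± 1.06 (SD, n = 4) of the FPKM of the Cox4i1 and Cox4i2 pair in FOXP3-low and 99.0% ± 1.31 (SD, n = 3) in FOXP3-high. Cox8a held 99.7% ± 0.567 and 97.8% ± 0.763 of the pair with Cox8b. Ndufa4l2, the hypoxia-linked relative of Ndufa4, ranged from 0 to 44 counts over the 7 libraries with no separation of the groups, and Ndufa4 itself was at 14.4, 13.2, 13.6 and 17.5 against 12.8, 13.9 and 13.7 CPM without passing the test (log2 fold change -0.12 ± 0.12, edgeR adjusted p = 0.461).

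The heart and muscle forms Cox6a2 and Cox7a1 were rare. Cox6a2 gave 14, 5, 13 and 6 counts in FOXP3-low libraries 1 to 4 and 0 in each FOXP3-high library, where 0 allows for up to 3 counts. Cox6a2 is overlapped on the opposite strand by Itgad, an integrin gene, which held 73.7% as many counts. Cox7a1 gave 15, 8, 11 and 9 counts in FOXP3-low and 7, 2 and 0 in FOXP3-high, so both rest on few reads and were left out by the filter on low counts. Without the filter Cox6a2 was called lower (edgeR adjusted p = 0.00113), and Cox7a1 did not pass (edgeR adjusted p = 0.141). Cox6a2 was also called lower without any 1 of the FOXP3-high libraries (edgeR adjusted p of 0.00938 to 0.0127). In those fits it met the filter only through FOXP3-low libraries, which fixed the direction of the call, so they give no further support. Cox7a2l, which helps to join complexes III and IV into supercomplexes, made up 69.4% ± 2.70 of the FPKM of Cox7a1, Cox7a2 and Cox7a2l in FOXP3-low and 72.8% ± 2.58 in FOXP3-high. Its CPM of 32.8, 31.5, 33.9 and 36.6 against 40.6, 35.2 and 36.6 did not pass the test (log2 fold change 0.15 ± 0.083, edgeR adjusted p = 0.16), nor did Cox7a2 (log2 fold change 0.10).

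Cox6b2 (ENSMUSG00000051811, chr7:4754791-4756037, minus strand), a form known from testis, showed the largest decrease of all members that passed the test, at 1.38, 0.813, 1.33 and 0.920 CPM in FOXP3-low and 0.172, 0.557 and 0.472 CPM in FOXP3-high (log2 fold change -1.49 ± 0.48, edgeR adjusted p = 0.0279). The level rests on a few counts per library, and the call was lost in 7 of the 16 alternatives that tested it, including the fits without FOXP3-high library 1 or 3. Cox6b2 also met the filter on low counts only through its FOXP3-low libraries, so a decrease was the only call open to it. Cox6b1 held 97.1% ± 0.649 of the FPKM of this pair in FOXP3-low and 98.6% ± 0.699 in FOXP3-high, so the subunit's transcripts came almost wholly from the general form in both groups. Ndufs6b, Ndufb11b and Ndufa11b of complex I and Cox6c2, Cox7b2, Cox8b and Cox8c of complex IV were at 0 to 2 counts in every library, and Cox4i2 gave 0 to 31.

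In ATP synthase each structural part held members that fell. Its catalytic F1 head is built from subunits alpha to epsilon, encoded by Atp5f1a to Atp5f1e. Of these 4 of 5 fell, against 24.6% of all genes tested. Atp5f1a, the alpha subunit, was at 435, 389, 405 and 392 CPM in FOXP3-low and 288, 281 and 288 CPM in FOXP3-high. The 3 FOXP3-high libraries were nearly equal and lay far below the lowest FOXP3-low library (log2 fold change -0.50 ± 0.050, edgeR adjusted p = 3.27e-05). Atp5f1b (ENSMUSG00000025393, chr10:127919142-127926029, plus strand), the catalytic beta subunit, was at 887, 807, 832 and 839 against 612, 542 and 608 CPM (log2 fold change -0.52 ± 0.055, edgeR adjusted p = 5.29e-05). Alpha and beta thus stood at 70.5% and 69.8% of their FOXP3-low means. Atp5f1c (gamma) and Atp5f1e (epsilon) fell with log2 fold changes of -0.37 and -0.36. Atp5f1e passed in 6 of 20 alternatives and lost its call when any library other than FOXP3-low library 3 was left out. Atp5f1d (delta), which Cbarp overlaps on the opposite strand, did not pass (-0.06).

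The peripheral stalk, which holds the head still, had all 5 of its entries lower (Atp5pb, Atp5pd, Atp5pf and both entries of Atp5po), against 24.6% of all genes tested. Atp5pb (ENSMUSG00000000563, chr3:105850014-105867415, minus strand), its b subunit, was at 356, 348, 354 and 353 CPM in FOXP3-low and 244, 229 and 234 CPM in FOXP3-high. The replicates lay close together, and Atp5pb had the smallest adjusted p of all members (log2 fold change -0.58 ± 0.042, edgeR adjusted p = 4.14e-06). Atp5pf had a log2 fold change of -0.35. Gabpa, which encodes a GABP subunit, overlaps Atp5pf on the opposite strand and held 35.3% as many counts. Its log2 fold change of -0.07 did not pass. The 2 entries of Atp5po overlap on the same strand, so their fold changes of -0.39 and -0.48 do not count as independent. Atp5pd (-0.26) and both Atp5po entries lost their calls without FOXP3-low library 1 or FOXP3-high library 2, and 1 Atp5po entry also without FOXP3-low library 4.

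Atp5if1 (ENSMUSG00000054428, chr4:132257866-132260906, minus strand) encodes the inhibitor that binds F1 and stops it from hydrolysing ATP. It was at 158, 133, 149.9 and 146 CPM in FOXP3-low and 85.6, 79.5 and 85.1 CPM in FOXP3-high. The FOXP3-high mean was 57.0% of the FOXP3-low mean, which is below the alpha and beta subunits (log2 fold change -0.81 ± 0.068, edgeR adjusted p = 1.07e-05). The gene model Gm12999 lies on the opposite strand of Atp5if1 with 97.4% as many counts and a log2 fold change of -0.82, so the counts of this pair were not separated with certainty. By FPKM, the level of Atp5if1 was 102 ± 7.23 (SD, n = 4) in FOXP3-low and 57.9 ± 2.37 (SD, n = 3) in FOXP3-high.

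The rotating c ring is made of copies of 1 mature protein that 3 genes encode, Atp5mc1, Atp5mc2 and Atp5mc3, which differ in their import sequences. Atp5mc1 (ENSMUSG00000006057, chr11:95959678-95966496, minus strand) was the least abundant tested member per length, at 0.858 ± 0.0825 FPKM in FOXP3-low and 0.330 ± 0.0951 FPKM in FOXP3-high. In counts it was at 3.66, 4.39, 4.21 and 4.60 against 2.06, 1.67 and 1.13 CPM (log2 fold change -1.37 ± 0.26, edgeR adjusted p = 0.00181). Atp5mc3, the main source, was at 25.8, 24.2, 23.3 and 23.6 against 18.3, 19.5 and 16.9 CPM and also fell (log2 fold change -0.41 ± 0.086, edgeR adjusted p = 0.00343). Atp5mc2 was at 8.69, 8.13, 7.01 and 7.95 against 6.71, 6.01 and 7.08 CPM and did not pass the test (log2 fold change -0.27 ± 0.15, edgeR adjusted p = 0.183). Of the summed FPKM of the 3 genes, Atp5mc1 gave 5.15% ± 0.658 in FOXP3-low and 2.60% ± 0.694 in FOXP3-high. Atp5mc2 gave 28.3% ± 1.20 and 31.3% ± 3.36, and Atp5mc3 66.5% ± 1.07 and 66.1% ± 3.04, so Atp5mc3 supplied most c ring transcript in both groups. The shares depend on the deposited lengths, 4912 bases for Atp5mc1, 1675 for Atp5mc2 and 2181 for Atp5mc3. By CPM, which uses no length, Atp5mc3 was also the highest of these genes.

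**Figure D5:**
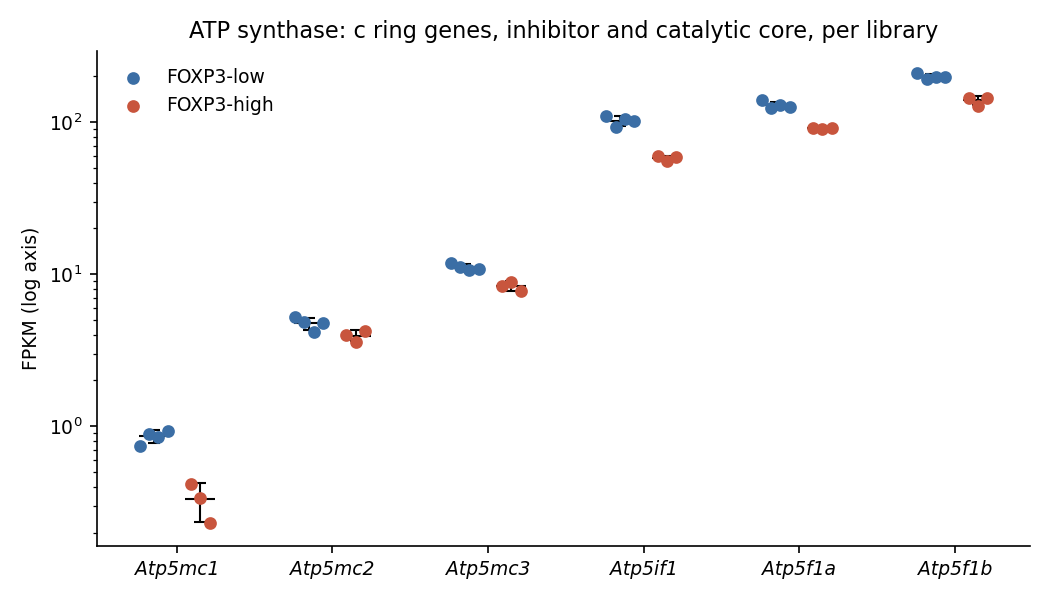
FPKM on a log axis of the 3 c ring genes, the inhibitor gene Atp5if1 and the alpha and beta subunit genes Atp5f1a and Atp5f1b in each library; points are libraries, and lines are the mean and SD of 4 FOXP3-low and 3 FOXP3-high libraries. The groups are apart for every gene shown except Atp5mc2, and levels span from 0.330 FPKM for Atp5mc1 in FOXP3-high to 199 FPKM for Atp5f1b in FOXP3-low.

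Of the 5 small subunits of the ATP synthase membrane part, Atp5mf and Atp5mg fell (log2 fold changes -0.50 and -0.27), against 24.6% of all genes tested. Atp5me, Atp5mj and Atp5mk did not pass, with values of -0.31, -0.17 and 0.25.

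Other genes of the pathway were read from lists made for this comparison. Electron carriers and subunits outside the name pattern fell in 5 of 6 tested genes, against 24.6% of all genes tested, with a median log2 fold change of -0.55. Etfb, 1 of the pair of subunits of the electron transfer flavoprotein that feeds electrons from fatty acid oxidation to ubiquinone, was at 142, 135, 146 and 152 CPM in FOXP3-low and 88.4, 84.3 and 90.4 CPM in FOXP3-high (log2 fold change -0.71 ± 0.058, edgeR adjusted p = 9.3e-06). Its partner Etfa, with means of 38.0 and 24.2 CPM, fell too (log2 fold change -0.65 ± 0.090, edgeR adjusted p = 2.82e-04). Cycs (cytochrome c), Etfdh and Dmac1, an assembly factor of complex I, fell as well, while Cyc1, the cytochrome c1 subunit of complex III, did not pass (-0.16).

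The 13 subunits of the mitochondrial genome had 8 of 12 tested genes lower, against 24.6% of all genes tested, with a median of -0.25. mt-Nd1, a complex I subunit, had means of 1013 and 785 CPM and fell (log2 fold change -0.37 ± 0.052, edgeR adjusted p = 3.24e-04). mt-Nd5, another, had means of 1332 and 1045 CPM (log2 fold change -0.35 ± 0.050, edgeR adjusted p = 3.42e-04). The 5 mitochondrial genes that were not called lower, mt-Nd3, mt-Co2, mt-Co3, mt-Atp6 and mt-Atp8, had group means of at most 4.65 CPM, far below the other 8. Why so few reads were counted for these 5 was not tested, so their values may not reflect their RNA levels. Decreases were thus called among both nuclear members (49 of 91 tested) and mitochondrial genes (8 of 12 tested). The other 42 tested nuclear members and 4 tested mitochondrial genes did not pass.

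Enzymes of the tricarboxylic acid cycle fell in 11 of 16 genes, against 24.6% of all genes tested, with a median of -0.24. Cs, citrate synthase, had means of 62.0 and 43.5 CPM (log2 fold change -0.51 ± 0.060, edgeR adjusted p = 9.71e-05). Sucla2, a subunit of succinyl-CoA ligase, had means of 97.3 and 73.2 CPM (log2 fold change -0.41 ± 0.052, edgeR adjusted p = 1.71e-04). Of 8 carriers and outer membrane proteins 6 fell, against the same 24.6% of all genes, with a median of -0.29. Ucp2, an inner membrane carrier of the uncoupling protein family, was at 269, 257, 252 and 239 CPM in FOXP3-low and 146, 148 and 139 CPM in FOXP3-high, a wide gap (log2 fold change -0.82 ± 0.054, edgeR adjusted p = 2.52e-06). Slc25a5, an ADP/ATP carrier, had means of 58.6 and 35.5 CPM (log2 fold change -0.72 ± 0.067, edgeR adjusted p = 2.24e-05).

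Assembly factors beyond the Ndufaf genes were counted by complex, and their difference from the subunits was not tested. The shares of all genes tested, 24.6% lower and 21.8% higher, apply to each count. Of 9 in the list for complex I, which does not hold Dmac1 (a decrease, described with the electron carriers), none fell by the edgeR test, with none lower at an unadjusted p under 0.05 either. In the same list 2 rose, Dmac2 (log2 fold change 0.66 ± 0.090, edgeR adjusted p = 2.65e-04) and Tmem126b (log2 fold change 0.39 ± 0.074, edgeR adjusted p = 0.00209), both known for building the membrane arm. Under the T cell scaling Tmem126b had a log2 fold change of -0.08 and Dmac2 no longer passed. None of the 4 for complex II passed in either direction, also at an unadjusted p under 0.05, and their median was 0.03. For complex III 2 of 6 fell, Uqcc2 (log2 fold change -0.42 ± 0.085, edgeR adjusted p = 0.00285) and Bcs1l (log2 fold change -0.96 ± 0.28, edgeR adjusted p = 0.0184), which inserts the Rieske protein and lost its call without FOXP3-high library 3, and 1 rose (Ttc19). For complex IV 5 of 24 fell, with a median of -0.11, among them Cmc2 (log2 fold change -1.19 ± 0.20, edgeR adjusted p = 0.00101) and the copper chaperone Cox17 (log2 fold change -0.30 ± 0.070, edgeR adjusted p = 0.00623). For complex V 1 of 4 fell, the F1 chaperone Atpaf2 (log2 fold change -0.46 ± 0.093, edgeR adjusted p = 0.00282). The counts of decreases for complexes IV and V and of increases for complex I were thus near or below the shares of all genes.

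The 16 regulators of mitochondrial gene expression held 3 lower and 6 higher genes, against 24.6% and 21.8% of all genes tested, with a median of -0.02. Lrpprc, which stabilizes mitochondrial mRNA, had means of 42.7 and 29.6 CPM and fell (log2 fold change -0.53 ± 0.080, edgeR adjusted p = 4.89e-04). Polg, the mitochondrial DNA polymerase, had means of 95.8 and 126 CPM and rose (log2 fold change 0.40 ± 0.061, edgeR adjusted p = 5.70e-04), but had a log2 fold change of -0.07 under the T cell scaling. Ppargc1a, the coactivator PGC-1alpha and the regulator with the largest increase, was chosen after its values were seen. It was at 13.7, 8.22, 13.0 and 18.3 CPM in FOXP3-low and 33.7, 25.4 and 29.3 CPM in FOXP3-high, with no overlap (log2 fold change 1.15 ± 0.22, edgeR adjusted p = 0.00203). The melanoma markers and most T cell identity genes rose in the same libraries, and the cell type that gave the Ppargc1a RNA was not tested. The factors whose motifs were counted above had log2 fold changes of 0.04 for Nrf1 and -0.07 for Gabpa, neither of which passed, and of 0.16 for Yy1 and 0.33 for Esrra, which were called higher. Gabpb1, the partner subunit of Gabpa in the ETS family factor GABP, was called higher as well (log2 fold change 0.50 ± 0.090, edgeR adjusted p = 0.00142). The T cell scaling shifts the median of all genes by -0.46, which is larger than the increases of Yy1 and Esrra and close to that of Gabpb1.

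Some member counts could hold reads of other genes, because the sources used here do not give whether strand was used in counting. Of the 102 members, 78 were overlapped by no gene with at least 10% as many counts. Among the 70 of these that were tested, 36 fell and none was called higher (1 at an unadjusted p under 0.05), with a median log2 fold change of -0.31. Of all genes tested, 24.6% were lower and 21.8% higher. Ndufb8 shared its strand with the gene model Gm20538 (97.9% as many counts, log2 fold change -0.32), Ndufb2 with Gm42420 (83.8%) and Ndufb9 with Gm49356 (48.2%). All 473 bases of Ndufb4b lie within Dock8 on the same strand, which held 3380% as many counts. Ndufb2, Ndufb9 and Ndufb4b did not pass the test.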

How the data were processed

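RNA was prepared with TRIzol and a stranded mRNA library kit, per the labels' protocols. The authors deposited 1 table of whole-number counts for 57180 genes, with coordinates and the gene length in bases that their counting tool wrote. Fastp 0.23.4, featureCounts, STAR 2.5.3a and the builds GRCm39 and GRCh38 are named, with no roles, per the submitters' processing notes. Strand use, shared reads and duplicate removal in the counting were not stated in the labels, so genes that overlap or nearly match another carry uncertain counts. The table had 0 unmapped columns of sample values.

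The members and gene lists were chosen with earlier results of these data known. Sample titles gave the group and replicate number. Counts were fitted as 1 whole table in R 4.3.3 with edgeR 4.0.16. Genes passed filterByExpr with a minimum count of 10 and a minimum total of 15, which left 15838. Libraries were scaled by TMM with factors from 0.973 to 1.05, and the quasi-likelihood test compared FOXP3-high with FOXP3-low at a Benjamini-Hochberg adjusted p under 0.05. The common biological coefficient of variation was 0.178, and the method was tested on simulated data. CPM and FPKM were computed here from the deposited counts with TMM library sizes and, for FPKM, the deposited lengths. Ranks and shares by FPKM between genes therefore depend on those lengths. A level of 1 CPM rests on 8.98 to 14.3 counts. No pair of replicates agreed within counting noise, with a chi-square per gene of 3.98 to 12.2.

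Genes were named by rule: Foxp3, Atp5f1a, up to 4 members per complex with the smallest adjusted p, members that rose, the largest decrease, 7 fixed isoform sets, Atp5if1, the highest and lowest FPKM, and up to 2 genes per further list. Other names list a whole group or were chosen after their values were seen. The values of 1 gene are not reported here. Alternatives used limma 3.58.1 and DESeq2 1.42.0, other scalings, filters and length corrections, and left out each library in turn. Coa1 of the complex I assembly list was not matched. In the remaining marker lists, 2 of 4 tested B and plasma cell genes and 2 of 3 tested CD8 and NK cell genes fell, against 24.6% of all genes. None of 5 endothelial and 5 fibroblast genes passed by edgeR or at an unadjusted p under 0.05.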

Additional observations from a re-analysis of the deposited data

How the results depend on the processing

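Of 20 alternatives, 18 were free of a length correction and left 30 of the 49 decreases in place each time. The number of lower members was 49 with DESeq2 size factors, the DESeq2 Wald test and limma-voom, 48 with quality weights, 43 with upper quartile factors, 38 with total counts, 52 without a filter, 47 with at least 50 counts in 3 libraries, 39 without both libraries numbered 3, and 35 to 50 with 1 library left out. Scaling to the T cell identity genes gave 79 lower members, with 32, 7 and 12 in complexes I, III and IV, and a median of -0.80. It turned the split over all genes from 3898 lower and 3459 higher to 7859 and 819. The gene length correction gave 10 lower members, with 4, 0, 1, 0 and 5 in complexes I to V, 5 higher and a median of -0.067, and 2821 lower and 4057 higher genes in all. Its robust version, chosen after seeing the data, gave 2 higher and a median of -0.28. The cause of these shifts was not tested. The number of higher members was 1 with upper quartile factors, total counts, DESeq2, quality weights and the replicate block, and 0 to 1 with 1 library left out. The median was -0.26 with total counts, -0.28 with quality weights, and -0.38 to -0.24 with 1 library left out. With 1 library left out complex IV had 3 to 8 lower members, the 3 without FOXP3-low library 4. Under the T cell scaling all 14 members with a positive value turned negative, among them Cox7a2 (-0.36) and Cox7a2l (-0.31), as did Tmem126b (-0.081) and Polg (-0.071). Under the length correction 23 members turned positive, 11 of them in complex I, among the 23 Sdha (0.0057), Atp5mc2 (0.0078) and Ndufa4 (0.15), and 2 did under its robust version. Cox7a2, at 0.10 as reported, ran from -0.064 without FOXP3-high library 1 to 0.24 without FOXP3-high library 2.

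With the replicate number as a block, 43 members fell and 1 was higher, with a median of -0.30. The labels do not say whether the numbers pair the libraries. Deviations of same-numbered libraries correlated at -0.09, 0.15 and 0.60 for numbers 1 to 3, and not every library correlated best with its own number. The deviations were taken from the mean of each group, so these values depend on one another. They cannot settle whether the numbers pair the libraries.

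Depth limits the members near 1 CPM, which rest on 8.98 to 14.3 counts per library.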
